A study of Mus musculus with 231 samples.

Results

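The cluster of miR-188, miR-362, miR-500, miR-501, miR-532 and miR-660 on the mouse X chromosome was followed in peripheral blood mononuclear cells (PBMC) of mice with the Cbfb-MYH11 (CM) fusion gene. Of 9 mature miRNAs listed for the cluster, 8 were found in all 3 deposited tables: mmu-miR-188-5p, mmu-miR-362-5p, mmu-miR-362-3p, mmu-miR-500-3p, mmu-miR-501-3p, mmu-miR-501-5p, mmu-miR-532-5p and mmu-miR-532-3p. They stand among 1863 mature miRNAs of the raw count table, and among 1895 and 1817 of the deposited CPM tables. The cluster was picked on measured values, because miR-500-3p was lower in CM mice at month 3, so that values of that month are a description here and carry no test. The ninth listed miRNA, miR-660-5p, was not analysed here. Of the other mature arms of the same hairpins, miR-500-5p and miR-188-3p were found and are given where they bear on a member.

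MicroRNAs are short RNAs cut from hairpin precursors, which can release a mature strand from either side, called the 5p and the 3p arm. A miRNA finds its target mRNAs mainly through its seed, the bases just behind its 5′ end, so that miRNAs with one seed can share targets. Hairpins that lie close together on one strand are often made from one long transcript, and the level of each mature strand then depends on its own processing and stability.

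CM mice carried a conditional Cbfb-MYH11 knock-in allele with Mx1-Cre, a recombinase switched on by interferon in many tissues and not in blood cells alone, on the C57BL/6 background. The allele models inv(16) acute myeloid leukemia. Mice were given poly(I:C) at 14 mg/kg per dose, 7 doses in all, at 6 to 8 weeks of age, and Ctrl mice were age-matched littermates that received the same injections. The genotype label was CHW in every CM mouse, and Ctrl mice were labelled HW, CW or WT. The study's methods describe control littermates with the knock-in allele, a floxed miR126 allele or both, and name no Mx1-Cre for them. The codes are not explained, so which Ctrl mice carried which allele is not given in the sources used here. The training cohort held 7 CM mice (4 female, 3 male; 53 libraries) and 7 Ctrl mice (2 female, 5 male; 76 libraries), sampled before induction (month 0) and then monthly up to month 10. CM libraries numbered 7 in month 1, 6 in months 2 and 4, where 1 mouse each had no library here although it had later ones, 5 in month 6 and 1 in month 10. For validation there were 10 CM and 6 Ctrl mice (60 and 42 libraries), and only the 12 libraries of sampling point 5 (6 CM, 6 Ctrl) were deep enough to measure the cluster.

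The sequences below, from RefSeq on GRCm38.p6, are shown because 2 members of the cluster that behaved differently in these data carry the same seed. The seed, bases 2 to 8 from the 5′ end, is in capitals.
miR-500-3p: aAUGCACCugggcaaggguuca
miR-501-3p: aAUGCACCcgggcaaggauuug
miR-500-5p: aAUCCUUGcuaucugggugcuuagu
miR-362-5p: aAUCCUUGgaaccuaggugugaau
miR-501-5p: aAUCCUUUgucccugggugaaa
miR-362-3p: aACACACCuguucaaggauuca
miR-188-5p: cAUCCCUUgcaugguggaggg
miR-532-3p: cCUCCCACacccaaggcuugca
Of 1679 mature mouse miRNAs in the same table, only miR-500-3p and miR-501-3p have the seed AUGCACC. The pair is identical at 18 of 22 bases, and the substitutions are U9C, G18A, C21U and A22G, counted from the 5′ end with the base of miR-500-3p first. None lies in the seed. miR-500-5p and miR-362-5p share the seed AUCCUUG with each other alone, whereas that of miR-501-5p was found in no other mature miRNA. A sequence was found for 7 of the 9 listed members, miR-532-5p being named only.

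The 5 hairpins with a position lie on the minus strand of chromosome X within 10.8 kb: Mir500 at chrX:7237683-7237774, Mir501 at chrX:7241243-7241351, Mir362 at chrX:7241982-7242046, Mir188 at chrX:7247989-7248056 and Mir532 at chrX:7248402-7248497. In the NCBIM37 annotation all 5 lie inside Clcn5, which encodes a chloride and proton exchanger, on the same strand and outside its exons, that is, in introns. Since miR-500-3p and miR-501-3p are nearly alike, reads with a mismatch could be counted to either, the more so where the 3′ end is shortened. A shortened 3′ end alone leaves the difference at base 9. How the authors' counting split such reads is not stated. The separate level of each is uncertain to that extent. The deposited CPM, made by another counting of the same libraries, had a Pearson's r of 0.996 for miR-500-3p and 0.980 for miR-501-3p with CPM from the raw counts over all training libraries, each pair of values being from the same reads.

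Training libraries held between 1792809 and 7958411 miRNA counts. Running numbers in the labels of mice 3334 (CM) and 3335 (Ctrl) cross between months 5 and 6, with those of 3334 going from over 100 down to 7 and 8 and those of 3335 from under 10 to over 100. The labels do not say whether libraries of both mice up to month 5 or those from month 6 on are in question. The later ones include the last library of mouse 3334. Results were therefore also computed without both mice. In bulk PBMC, fewer cells of a type and less RNA per cell cannot be told apart. Labels do not say how PBMC were gated, and miRNAs named for mature lymphocytes (miR-150), myeloid cells (miR-223) and erythroid cells (miR-451a, miR-144, miR-486) were above 0 in every library.

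The members covered a wide range of levels. CPM here means counts relative to the library total, scaled by TMM (a trimmed mean of log ratios between libraries), and it is not divided by length since mature miRNAs are nearly equally long. Over the training libraries (53 CM, 76 Ctrl), miR-362-5p was the most abundant at 609 ± 219 CPM (SD), followed by miR-532-5p at 495 ± 119.4 CPM, miR-501-3p at 310 ± 84.8 CPM and miR-500-3p at 274 ± 154 CPM. The spread of each of these neighbours overlapped the next. The order of miR-501-3p and miR-500-3p depended on the arm: in Ctrl mice, with counts of 5 months summed per mouse, miR-500-3p was the higher at 364 ± 59.2 CPM against 324 ± 38.5 CPM. miR-362-3p stood at 163 ± 79.6 CPM and miR-532-3p at 87.8 ± 25.3 CPM. miR-501-5p at 14.9 ± 7.44 CPM and miR-188-5p at 8.13 ± 2.87 CPM were low. The other arms were lower still, with miR-500-5p at a mean of 1.73 CPM and miR-188-3p at 0.522 CPM, the latter listed at 0 in 27 libraries. miR-500-3p rested on 163 to 3217 counts per library, and its level ran from 48.7 to 670 CPM.

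To ask whether the cluster differed between CM and Ctrl mice after induction at times the choice had not used, counts of months 1, 2, 4, 5 and 6 were summed per mouse and tested over 7 CM and 7 Ctrl mice. The same mice gave the month 3 values behind the choice, so that this test is not independent of it. Every Ctrl mouse had 5 libraries in its sum. CM mice 3338 and 3357 had 3, with none of months 5 and 6. CM mouse 3334 had none of month 2 and CM mouse 3336 none of month 4, so that the months summed differ between the arms. miR-500-3p and miR-532-3p were lower in CM mice, and the other 6 members did not pass the test. The test was edgeR's quasi-likelihood test with adjustment by Benjamini-Hochberg (BH) over all miRNAs tested, and a miRNA was called at an adjusted p under 0.05. By this rule 176 of 748 miRNAs were called, 23.5% of those tested, so that the 2 of 8 members called are close to the share over all miRNAs. Of the 8 members, 7 had a log2 fold change below 0, with a median of -0.20, beside 46.4% and 0.03 over all miRNAs tested.

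miR-500-3p was measured at 113.6 CPM in the lowest CM mouse, 145 CPM in the median mouse and 213 CPM in the highest, against 296, 359 and 442 CPM in Ctrl mice. No CM mouse reached the level of any Ctrl mouse. How many of all miRNAs had groups without overlap is not given, here or in the comparisons below. The means were 164 ± 39.1 CPM and 364 ± 59.2 CPM (SD, n = 7 each), with a log2 fold change of -1.10 ± 0.15 (SE) and an adjusted p of 0.00105 in edgeR's quasi-likelihood test. Without mice 3334 and 3335 the fold change was -1.12 ± 0.16 with an adjusted p of 0.0016.

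miR-501-3p, the member with the same seed, was at 316 ± 55.9 CPM in CM mice, ranging from 253 to 422 CPM, and at 324 ± 38.5 CPM in Ctrl mice, ranging from 260 to 387 CPM. The groups overlapped over most of their range, and the log2 fold change was 0.01 ± 0.12 with an adjusted p of 0.958. Its sign depended on the setting, with values between -0.12 and 0.07 over 21 alternatives and none called. Since the sum per mouse held the same libraries for both miRNAs, their ratio does not depend on the scaling of a library. The ratio of miR-500-3p to miR-501-3p was 0.323 in the lowest CM mouse, 0.536 in the median and 0.798 in the highest, against 0.9003, 1.05 and 1.39 in Ctrl mice. All 7 CM mice were below all 7 Ctrl mice. On the log2 scale it averaged -0.959 ± 0.4929 for CM and 0.164 ± 0.278 for Ctrl (SD, n = 7 each), and the difference was -1.12 with an exact two-sided permutation p of 0.00058, the smallest that 7 against 7 mice can give, and a BH-adjusted p of 0.00175 over 6 ratio tests. These tests were chosen after the values were seen. Without mice 3334 and 3335 the difference was -1.18, and with the deposited CPM it was -1.14. At month 0 the ratio ran from 0.577 to 2.06 in CM mice and from 0.854 to 1.68 in Ctrl mice, with a difference of -0.02 on the log2 scale and an exact permutation p of 0.951.

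**Figure D1:**
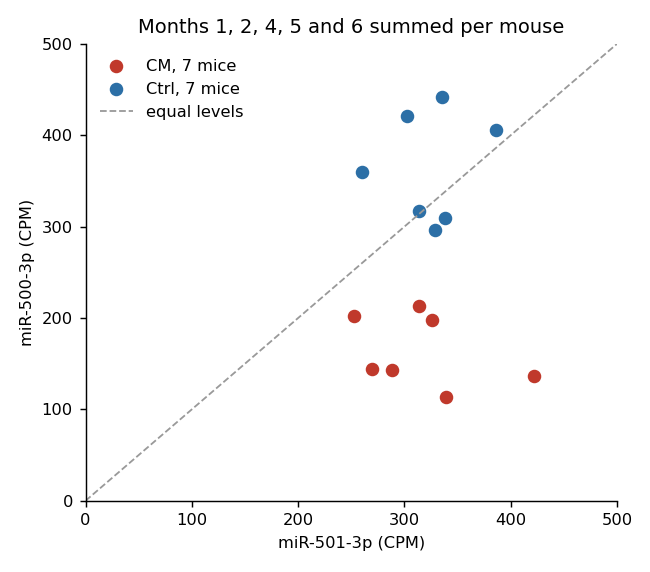
Level of miR-500-3p (CPM, vertical axis) against miR-501-3p (CPM, horizontal axis) in counts of months 1, 2, 4, 5 and 6 summed per mouse, 1 point per mouse (7 CM, 7 Ctrl), with a dashed line at equal levels. The CM mice lie between 113.6 and 213 CPM of miR-500-3p and the Ctrl mice between 296 and 442 CPM, while both cover a like range of miR-501-3p.

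The ratio of miR-500-3p to the sum of the other 7 members gave a like picture. It was 0.0622 in the lowest, 0.104 in the median and 0.149 in the highest CM mouse, against 0.152, 0.216 and 0.245 in Ctrl mice, with a difference of -1.001 on the log2 scale (exact two-sided permutation p 0.00058, BH-adjusted 0.00175). The groups did not overlap, although the highest CM mouse lay next to the lowest Ctrl mouse. At month 0 the difference was -0.29 with an exact permutation p of 0.18. mmu-miR-500-5p, the other arm of the miR-500 hairpin, averaged 1.52 CPM in CM against 1.89 CPM in Ctrl mice, with a log2 fold change of -0.29 ± 0.26 and an adjusted p of 0.463 by edgeR's quasi-likelihood test. It rests on few counts.

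Of the miR-532 hairpin, the 3p arm was lower in CM mice. miR-532-3p was measured at 61.1, 76.04 and 81.1 CPM in the lowest, median and highest CM mouse and at 86.9, 102.2 and 108.8 CPM in Ctrl mice, without overlap. The means were 73.1 ± 7.46 and 100.1 ± 8.88 CPM (SD, n = 7 each), with a log2 fold change of -0.40 ± 0.09 and an adjusted p of 0.0067 in edgeR's quasi-likelihood test, or 0.0143 without mice 3334 and 3335. The more abundant 5p arm, miR-532-5p, averaged 484 ± 59.5 CPM in CM against 537 ± 77.2 CPM in Ctrl mice, with overlapping groups, a log2 fold change of -0.10 ± 0.11 and an adjusted p of 0.573.

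The unequal change of the arms was tested as the log2 ratio of 5p to 3p counts per mouse (limma, BH over 78 hairpins with both arms at a mean of 10 CPM or more), where 34 hairpins were called, 43.6% of those tested. For miR-532 the ratio was higher in CM mice by 0.31 ± 0.10 on the log2 scale with an adjusted p of 0.0198, and it was called under all 19 alternatives. In mouse 3334 the log2 ratio was 2.37, inside the Ctrl range of 2.21 to 2.59, and in the other CM mice it was 2.66 to 3.00, above that range. The ratio for miR-501 differed by -0.28 ± 0.13 (adjusted p 0.0953), and was called without mouse 3334 (-0.33) or mouse 3349 (-0.34). That for miR-362 differed by -0.10 ± 0.15 (adjusted p 0.627). With 43.6% of hairpins called, a called ratio is common in this comparison.

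The remaining members did not pass the test in the summed counts. Both arms of miR-362 overlapped between groups: miR-362-5p averaged 576 ± 163 CPM in CM against 660 ± 140 CPM in Ctrl mice (log2 fold change -0.15 ± 0.18, adjusted p 0.617 by edgeR), and miR-362-3p averaged 163 ± 30.7 and 179 ± 41.96 CPM (-0.08 ± 0.16, adjusted p 0.812). The low members gave wider errors. miR-501-5p averaged 11.95 ± 3.43 and 14.8 ± 3.19 CPM (log2 fold change -0.26 ± 0.19, adjusted p 0.353 by edgeR), and without CM mouse 3338 it was called at -0.46. miR-188-5p averaged 6.87 ± 1.41 and 9.10 ± 2.03 CPM (log2 fold change -0.35 ± 0.17, adjusted p 0.148 by edgeR).

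Markers of other blood cells moved in the same comparison. Of 7 erythroid miRNAs, 5 were called higher in CM mice, and the list's log2 fold changes ran from 0.46 to 1.10. The list holds both arms of miR-486a and of miR-486b. Their 5p arms had the same log2 fold change at validation point 5 (-0.15), so that the 7 are not all separate measures. The summed level of the 7 was 44700 to 215700 CPM among CM mice, beside 50360 to 118200 CPM among Ctrl mice. Of 2 lymphocyte miRNAs none was called (21350 to 43030 CPM in CM, 32260 to 56450 CPM in Ctrl), nor of 2 myeloid miRNAs (5482 to 9339 and 4687 to 15290 CPM). Of the 2 arms of miR-142a, a miRNA of blood cells in general, miR-142a-3p was lower in CM mice by 0.56 ± 0.11 on the log2 scale (log2 fold change -0.56, adjusted p 0.0035 by edgeR), and the sum of both arms was 53320 to 75920 CPM against 68790 to 81470 CPM. No listed marker was at 0 in any library. Their part in the lower level of miR-500-3p and miR-532-3p was not tested.

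Month by month, miR-500-3p passed the test of CM against Ctrl at months 1 and 2, and did not at months 0, 4, 5 and 6. The difference between the arms in the change from month 0 to 1 did not pass its own test, given with the changes within mice. At month 0, miR-500-3p averaged 393 ± 153 CPM in CM against 419 ± 94.8 CPM in Ctrl mice (log2 fold change -0.12 ± 0.23, adjusted p 0.851 by edgeR). No member was called at that month, when 1 of 478 miRNAs (0.209%) was called. These monthly comparisons use the libraries that were summed above and are not separate evidence.

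**Figure D2:**
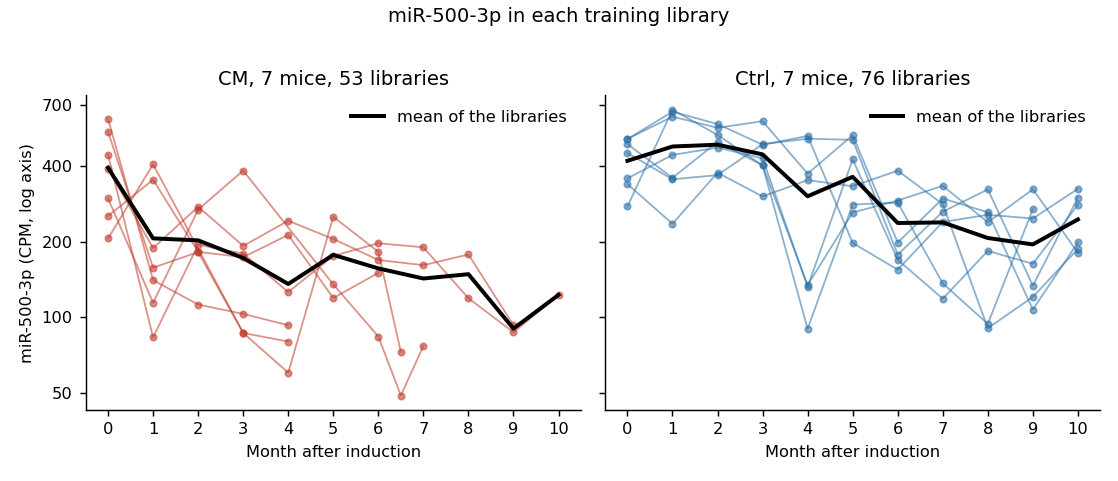
Level of miR-500-3p (CPM, log axis) against the month after induction in every training library, with the 7 CM mice on the left and the 7 Ctrl mice on the right; thin lines join libraries of 1 mouse and the thick line is the mean of the libraries of a month. The CM mean falls from 393 CPM at month 0 to 206 CPM at month 1, and the Ctrl mean stays at 419 to 486 CPM up to month 3 and is at 195 to 245 CPM from month 6 on.

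At month 1, miR-500-3p was at 82.99, 157 and 406 CPM in the lowest, median and highest CM mouse and at 235, 442 and 670 CPM in Ctrl mice. CM mice 3334 and 3341, at 405.8 and 352.4 CPM, lay inside the Ctrl range and the other 5 CM mice below it. The log2 fold change was -1.25 ± 0.35 with an adjusted p of 0.0190 in edgeR's quasi-likelihood test, where 27.5% of miRNAs (130 of 472) were called. miR-532-3p was the other member called, with 75.4 ± 22.0 CPM in CM against 122.7 ± 17.5 CPM in Ctrl mice (log2 fold change -0.73 ± 0.18, adjusted p 0.0105, or 0.057 with no filter on low counts). In that month all 7 erythroid miRNAs were called higher in CM mice, with a summed level of 53400 to 622600 CPM against 28310 to 69680 CPM, and their part in the result was not tested. The median log2 fold change of all miRNAs tested was -0.10 at month 1 under TMM scaling and 0.00 under the size factors of DESeq2, beside a median of -0.23 over the members.

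Month 2 held the most members called. miR-500-3p was at 112.2 to 275 CPM in 6 CM mice and at 368 to 587 CPM in 7 Ctrl mice, without overlap (log2 fold change -1.28 ± 0.21, adjusted p 0.0029 by edgeR). All 8 members had a log2 fold change below 0 and 4 were called, where 13.5% of all miRNAs (65 of 481) were called. Besides miR-500-3p these were miR-362-5p at 558 ± 89.6 against 906 ± 158 CPM (-0.71 ± 0.15, adjusted p 0.0107), miR-501-5p at 12.2 ± 3.55 against 23.3 ± 6.93 CPM (-0.94 ± 0.25, adjusted p 0.0226) and miR-188-5p at 6.44 ± 1.29 against 11.3 ± 2.09 CPM (-0.82 ± 0.20, adjusted p 0.0171). The groups did not overlap for miR-362-5p and miR-188-5p, without a share over all miRNAs to set beside it. With no filter on low counts, or with all training libraries in 1 fit and the G number of the label as a covariate, only miR-500-3p of the 8 was called at this month. The joint fit had no term for the mouse and took libraries of 1 mouse as independent. At this month 4 of 7 erythroid miRNAs were called higher and miR-142a-3p lower in CM mice (log2 fold change -0.89 ± 0.16), and their part was not tested.

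**Figure D3:**
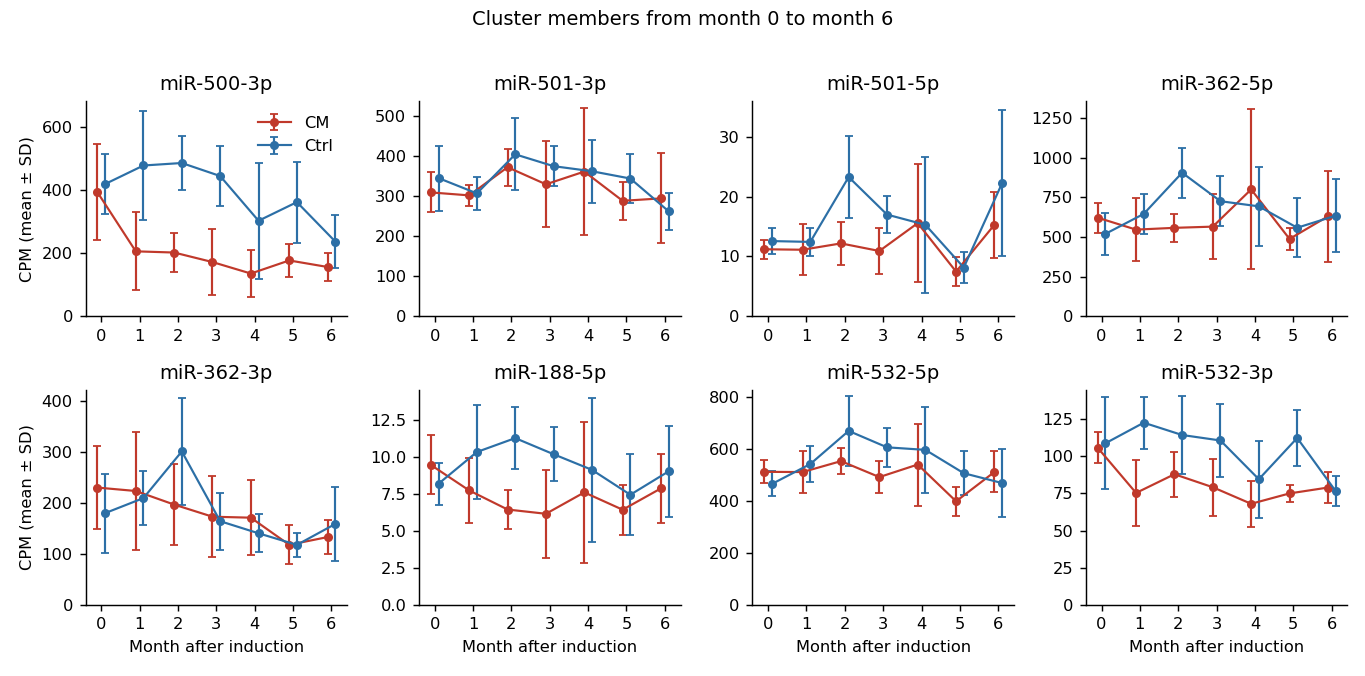
Mean level (CPM, error bars SD) of the 8 members in CM and Ctrl libraries at months 0 to 6 after induction, with 5 to 7 CM and 7 Ctrl mice a month and an axis from 0 for each member. miR-500-3p is lower in CM from month 1 on, at 206 against 478 CPM there, whereas the SD bars of CM and Ctrl overlap for miR-501-3p at each month.

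Month 3 is the month that chose the cluster. There miR-500-3p was at 86.5, 173 and 383 CPM in the lowest, median and highest CM mouse and at 302, 429 and 603 CPM in Ctrl mice, with a log2 fold change of -1.31. CM mouse 3336, at 383.2 CPM, lay within the Ctrl range and the other 6 CM mice lay below it. The other 7 members had log2 fold changes between -0.66 and 0.13, and over all miRNAs 22.0% (100 of 455) were called at this month.

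At month 4, miR-500-3p was at 135.5 ± 74.8 CPM in 6 CM mice and 303 ± 185 CPM in 7 Ctrl mice, and the difference did not pass the test (log2 fold change -1.14 ± 0.46, adjusted p 0.232 by edgeR). No member was called, beside 0.837% of all miRNAs (4 of 478). Ctrl mice fell into 2 ranges in that month, with mouse 3350 at 89.9 CPM, mouse 3349 at 132.2 CPM and mouse 3346 close to the latter, and the other 4 between 351 and 527 CPM. Mice 3350 and 3349 were the only females among the Ctrl mice, and mouse 3346 was male. Without mice 3334 and 3335 the log2 fold change was -0.78.

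At month 5, miR-500-3p averaged 177 ± 53.2 CPM over 5 CM mice and 361.9 ± 128.1 CPM over 7 Ctrl mice, with a log2 fold change of -0.996 ± 0.28 and an adjusted p of 0.106 by edgeR. No miRNA of 505 was called at that month (0.0%; 21.6% had an unadjusted p under 0.05), whereas DESeq2 called 21, miR-500-3p and miR-532-3p among them. Ctrl mouse 3335 decided these counts: without it 37 miRNAs were called by edgeR, with miR-500-3p at -1.14 (adjusted p 0.029) and mmu-miR-532-3p at -0.62 (adjusted p 0.0242). Without CM mouse 3368 edgeR called 4 miRNAs, no member among them. miR-532-3p itself ran from 69.7 to 82.4 CPM in CM mice and from 88.2 to 149 CPM in Ctrl mice, without overlap.

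At month 6, miR-500-3p averaged 156 ± 44.1 CPM over 5 CM mice and 237 ± 84.8 CPM over 7 Ctrl mice (log2 fold change -0.65 ± 0.30, adjusted p 0.706 by edgeR). No miRNA of 444 was called (0.0%; 31 had an unadjusted p under 0.05, and DESeq2 called 0). With 1 to 3 CM mice left, no test was run from month 7 on. miR-500-3p was at 143 ± 58.7 CPM in 3 CM mice at month 7 beside 238 ± 81.4 CPM in Ctrl mice. At month 8 the 2 CM mice, at 118.9 and 177.6 CPM, lay inside the Ctrl range of 90.27 to 322.5 CPM. It was at 89.97 ± 4.20 CPM in 2 CM mice at month 9 beside 107.2 to 323 CPM in Ctrl mice. The last CM mouse stood at 122.6 CPM at month 10, where 6 Ctrl mice ran from 180 to 324 CPM.

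Changes within mice set month 0 against later libraries. In CM mice, miR-500-3p was lower at month 1 than at month 0 in 5 of 7 mice, with a log2 fold change of -0.93 ± 0.35 that missed the threshold (adjusted p 0.085 by edgeR) and an adjusted p of 0.14 with the mouse as a block. Without mouse 3334 it was -1.28 with an adjusted p of 0.0206, and 2 members were called, beside 78 of 470 miRNAs. No member was called with all mice, beside 12.7% of all miRNAs (59 of 466). With the mouse as a block 16 miRNAs were called. In Ctrl mice the change of miR-500-3p was 0.14 ± 0.23 (adjusted p 0.799), lower in 3 of 7 mice, where 0.63% of miRNAs (3 of 476) and no member were called. The difference between these changes, tested as an interaction, was -1.06 ± 0.43 for miR-500-3p with an adjusted p of 0.119, beside 8.46% of miRNAs called (44 of 520) and no member. Without mice 3334 and 3335 it was -1.35 with an adjusted p of 0.0451, and with the mouse as a block -1.11 with an adjusted p of 0.233 and 21 miRNAs called.

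The last library of each CM mouse gave the widest distance from month 0. Mice 3338 and 3357 had theirs at month 4, mouse 3341 at month 6, mouse 3334 at a time labelled T6p5 and read as month 6.5, mouse 3336 at month 7, mouse 3370 at month 9 and mouse 3368 at month 10. miR-500-3p went from 393 ± 153 CPM (206 to 617 CPM) to 98.3 ± 28.2 CPM (72.7 to 150 CPM), and every last library lay below every month 0 library. It fell in 7 of 7 mice, to between 0.146 and 0.594 of its month 0 level. The log2 fold change was -1.87 ± 0.26 with an adjusted p of 0.00028 in edgeR's quasi-likelihood test, and -1.82 with an adjusted p of 0.0067 with the mouse as a block. It was the only one of 8 members called, beside 39.0% of all miRNAs (174 of 446), and it was called under all 12 alternatives.

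**Figure D4:**
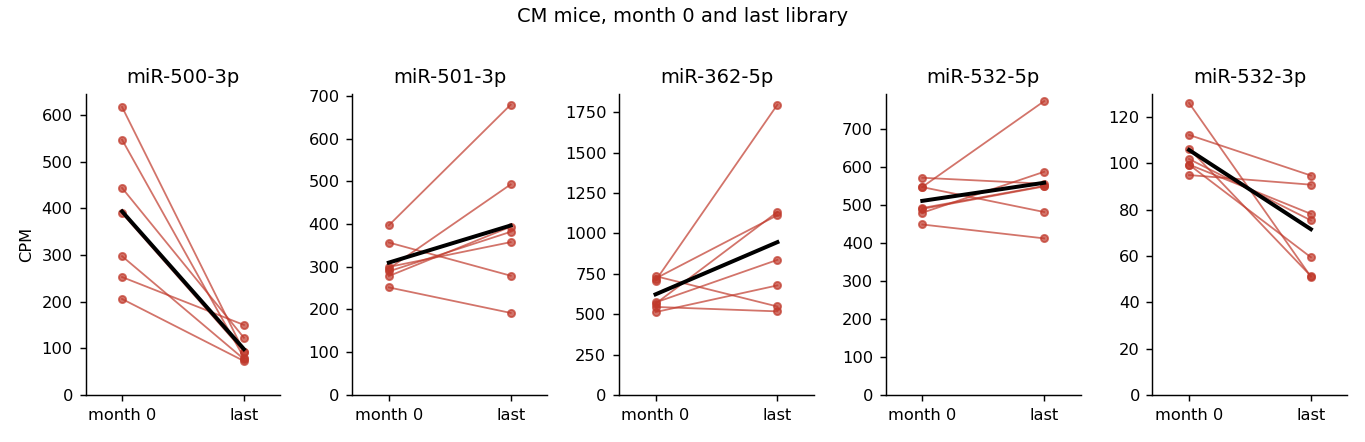
Level (CPM, axes from 0) of 5 members in the month 0 library and the last library of each of 7 CM mice; thin lines join libraries of 1 mouse and the thick line joins the means. miR-500-3p goes down in all 7 mice, from a mean of 393 to 98.3 CPM, and miR-532-3p goes down in all 7, while miR-362-5p goes up in 5.

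Other members took other courses in the last library. miR-532-3p was lower in 7 of 7 mice, at 105.8 CPM before and 71.6 CPM after, but did not pass the test (log2 fold change -0.41 ± 0.21, adjusted p 0.138 by edgeR). miR-362-5p was higher in 5 of 7 mice, at 622 and 945 ± 450 CPM (0.80 ± 0.31, adjusted p 0.0508), and was called without mouse 3357 (0.94) or mouse 3370 (0.82). For miR-501-5p the log2 fold change was 0.83 ± 0.35 (adjusted p 0.0758 by edgeR). Both were smaller in the deposited CPM, at 0.39 (adjusted p 0.256 by limma) for miR-362-5p and 0.08 (adjusted p 0.86) for miR-501-5p. miR-501-3p was higher in 5 of 7 mice, at 310 and 397 CPM. miR-500-5p, at 1.29 and 2.90 CPM, was higher in 7 of 7 mice, opposite to the 3p arm of its hairpin, but it was too low to enter the test. In the same comparison 3 of 7 erythroid miRNAs were called higher and 1 lower, and 1 of 2 lymphocyte and 1 of 2 myeloid miRNAs were called lower; their part was not tested.

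Ctrl mice changed as well over a like time. Between month 0 and month 6 miR-500-3p was lower in 5 of 7 Ctrl mice, from 419 ± 94.8 to 237 ± 84.8 CPM, with a log2 fold change of -0.77 ± 0.25 and an adjusted p of 0.0417 by edgeR, where 20.5% of miRNAs (97 of 474) and 1 member were called. With the mouse as a block the adjusted p was 0.0593 and the call was lost, and without mouse 3335 it was 0.0778. Whether the fall to the last library of CM mice exceeded the fall over months in Ctrl mice was not tested, since the times differ.

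Since the cluster is X-linked and the arms held unequal numbers of females, female and male Ctrl mice were compared in counts of all months summed per mouse (2 females, 5 males). The females were labelled CW and WT and the males CW and HW, so that sex was partly mixed with the genotype label. All 8 members were lower in females, with log2 fold changes of -0.44 to -0.14 and a median of -0.27, and 6 had an unadjusted p under 0.05. None was called, and neither was any of 958 miRNAs (0.0%; 11.6% with an unadjusted p under 0.05; DESeq2 called 4). miR-532-5p was at 410 and 461 CPM in the 2 females and at 505 to 553 CPM in the 5 males, with a log2 fold change of -0.29 ± 0.08 and an adjusted p of 0.212 by edgeR. Of 24 other X-linked miRNAs tested, 14 were lower in females, with a median of -0.01, and of all 958 the median was -0.02. With sex in the fit, the CM to Ctrl difference of miR-500-3p in the summed counts was -1.10.

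Across libraries the members varied together only in part. Over all training libraries, several of which come from each mouse, the 21 pairs among the 7 members with a mean of 10 CPM or more had Pearson's r of log2(CPM + 1) between 0.068 and 0.751, with a median of 0.429. The highest was that of miR-500-3p with miR-532-3p at 0.751. Between miR-500-3p and miR-501-3p, r was -0.222 over 53 CM libraries and 0.706 over 76 Ctrl libraries. Outside the cluster, the miRNAs of 324 candidates most like the members' mean profile were miR-142a-3p (r 0.817), miR-33-5p (0.765) and miR-29c-5p (0.765). For miR-500-3p alone, r with miR-142a-3p was 0.743 over CM and 0.892 over Ctrl libraries, and with miR-142a-5p 0.588 and 0.537. With the lymphocyte miRNAs it was 0.693 and 0.761 for miR-150-5p, and 0.424 and 0.798 for miR-150-3p. With the myeloid miR-223-3p it was 0.409 and 0.108, and with miR-223-5p 0.216 and 0.059. The erythroid miRNAs were unlike each other over CM libraries, from -0.031 for miR-451a and -0.146 for miR-144-3p to -0.644 for miR-486a-3p. Over Ctrl libraries they ran from -0.471 for miR-451a to -0.717 for miR-486a-3p. These are descriptions, since libraries of 1 mouse are not independent and levels within a library add to a fixed total.

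The validation cohort was not used to choose the cluster. At point 5, with 1645456 to 5445215 reads per library, no miRNA of 930 was called between 6 CM and 6 Ctrl mice (0.0%; 54 with an unadjusted p under 0.05) in limma-trend on log2(CPM + 1), nor in edgeR on the whole reads recovered from the deposited values. miR-500-3p, in the deposited CPM of that cohort, was at 1743, 3552 and 10220 CPM in the lowest, median and highest CM mouse and at 3510, 3856 and 9726 CPM in Ctrl mice, with overlapping groups and a log2 fold change of -0.33 ± 0.39 (adjusted p 0.955). Single mice moved that value, to -0.63 without CM mouse 2700 and to -0.11 without Ctrl mouse 2683, and it was called under none of 16 alternatives. The deposited values of this cohort follow a different scale, so that levels are not set against those of the training cohort. miR-501-3p had a log2 fold change of 0.14 ± 0.27 there, and the 8 members ran from -0.33 to 0.37, with 2 below 0. The ratio of miR-500-3p to miR-501-3p was 0.306 to 1.97 in CM and 0.840 to 2.05 in Ctrl mice, a difference of -0.46 on the log2 scale with an exact two-sided permutation p of 0.303. Point 5 is 1 sampling time with no month in the labels, whereas the training value sums months 1, 2, 4, 5 and 6. Of the 10 CM mice of this cohort, 6 had a library at that point. With the spread at this point, neither a difference of the size seen in the training mice nor none can be told from these 12 libraries.

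**Figure D5:**
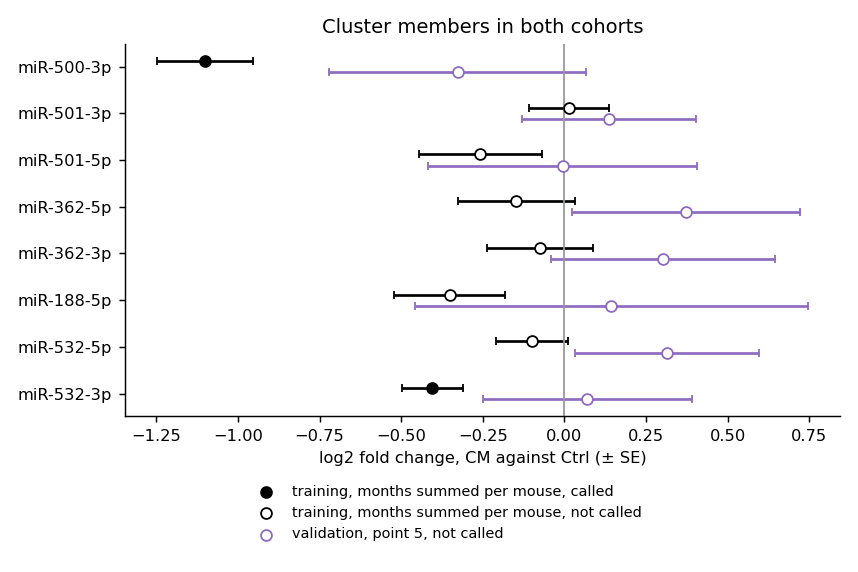
Log2 fold change of CM against Ctrl (± SE, horizontal axis) of the 8 members in the training mice (counts summed per mouse, filled where called) and at validation point 5 (on the log2(CPM + 1) scale). miR-500-3p at -1.10 and miR-532-3p at -0.40 are the called members in the training mice, and none is called in the validation mice.

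In the other 90 validation libraries, which held 1744 to 76906 reads, the members were not detectable in most: 5 of 8 had any read, 51 reads in all, and no library had more than 3 reads of a member. miR-500-3p had a read in 17 of the 90. miR-188-5p, miR-501-5p and miR-532-3p had 0 reads in every one, which allows up to 39.0 CPM, unscaled, in the deepest of these libraries and 1720 CPM in the shallowest (3 reads, counting error only). Nothing was compared there.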

How the data were processed

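Small RNA libraries of total RNA from PBMC were sequenced in 129 training and 102 validation samples, and arm, mouse, sex and time were taken from the labels. The members, the lists and the tests were chosen with earlier results of these data known. As described for the study, adapters were trimmed by the authors with cutadapt, longer reads were aligned with Bowtie and CPM was scaled by TMM in edgeR. The published methods name mm9, whereas the submitters' processing notes name GRCm38. The authors made the deposited raw counts (training only) with mirTOP, at settings not given in the sources used here. The deposited CPM is a TMM-scaled signal, of which 100% of values were whole reads within 0.1 read (training 1376082 to 7520419, validation 1744 to 5445215 reads per library). On the recovered reads edgeR called 201 of 712 miRNAs in the summed counts and 0 of 478 at validation point 5 (70 with an unadjusted p under 0.05). No 2 libraries held identical values.

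Training counts were tested with edgeR 4.0.16 (R 4.3.3; TMM, filterByExpr, glmQLFTest), validation CPM and arm ratios (0.5 added to both counts) with limma 3.58.1, and ratios per mouse by exact permutation (scipy 1.17.1). Tests were two-sided with BH adjustment over all features tested. The named miRNAs were all members found, the other arms of their hairpins, the 3 miRNAs most like them and the listed blood cell markers. Alternatives were DESeq2 1.42.0, no filter, the deposited CPM, sex or the label's G number (not explained) as a covariate, other months, a block by mouse and leaving out mice. Libraries with the same mouse number came from the same animal, which is the ground for the pairing, although the deviations of paired libraries correlated weakly (median r 0.118 for CM at month 1, -0.145 for Ctrl at month 1 and -0.0515 for Ctrl at month 6). The tests were checked on simulated counts. Whether each mouse was housed or processed apart is not stated, so that p-values measure the spread between these mice.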

Additional observations from a re-analysis of the deposited data

Results flagged for a closer look

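In 48 groups of 4 to 10 samples, 4 held a sample far from the others by Dixon's criterion, which chance gives in about 5% of groups. In the summed counts of CM mice, mouse 3338 had 19.09 CPM of miR-501-5p, with the next mouse at 13.16 CPM. At month 3, CM mouse 3336 had 383.2 CPM of miR-500-3p, with the next at 192.1 CPM, and CM mouse 3334 had 118.5 CPM of miR-532-3p, with the next at 81.86 CPM. At validation point 5, Ctrl mouse 2683 had 9726 CPM of miR-500-3p, with the next Ctrl mouse at 4701 CPM.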

How the results depend on the processing

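miR-500-3p in the summed counts was called under all 21 alternatives that leave out month 3 (log2 fold change -1.21 to -1.06, adjusted p 1.08e-09 to 0.0041), as was miR-532-3p (-0.50 to -0.34). Of 443 values of single members without month 3, 400 kept their direction and their side of the threshold, 11 were no longer called, 16 became called and 16 changed sign, all in values near 0. miR-500-3p at month 0 was 0.0033 without mice 3334 and 3335. miR-501-3p in the summed counts was -0.0045 with DESeq2, -0.0358 with no filter, -0.0572 with sex, -0.0778 in months 1, 2 and 4, -0.0515 with month 3 added (a description, since that month chose the cluster), -0.0028 on recovered reads (added after seeing the data) and -0.1172 to 0.0656 with 1 mouse left out. miR-362-3p was 0.0141 without mice 3334 and 3335, and the miR-362 arm ratio was -0.1809 to 0.0177 with 1 mouse left out. The causes were not tested.

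The share of tested miRNAs called moved as follows. DESeq2 called 0.837% for month 0, 21.4% for month 2, 4.81% for month 4, 4.16% for month 5, 3.78% for Ctrl from month 0 to 1, 13.3% for the interaction and 0.418% between sexes. With no filter, which tests more miRNAs, the shares were 0.0% for month 0, 5.97% for month 1, 2.63% for month 2, 4.77% for month 3, 7.59% for the summed counts, 3.1% for CM and 0.188% for Ctrl from month 0 to 1, 12.2% for the last library, 4.15% for Ctrl from month 0 to 6 and 1.29% for the interaction. Without mice 3334 and 3335 they were 0.0% for month 0, 1.46% for month 4, 10.4% for month 5 and 0.0% for Ctrl from month 0 to 1. With sex as a covariate they were 0.0% for months 0 and 4, 17.7% for month 1 and 14.0% for the summed counts. With the G number in 1 fit they were 0.0% for month 0, 13.3% for month 1, 5.15% for month 2, 7.61% for month 3, 6.26% for month 4, 0.736% for month 5 and 1.84% for month 6. That fit had no term for the mouse and took libraries of 1 mouse as independent. The deposited CPM gave 0.0% for month 0, 0.347% for Ctrl from month 0 to 1, 4.58% for the interaction and 0.166% between sexes. Leaving out 1 mouse gave 0.0% to 7.51% for month 5 and 0.0% to 0.0983% between sexes.

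With the mouse as a block, the pairing gave 3.43% called for CM from month 0 to 1, 0.0% for Ctrl from month 0 to 1, 4.04% for the interaction and 0 members for Ctrl from month 0 to 6, and it changed no other call of a member. Members called moved to 1 for month 1 with no filter, to 1 for month 2 with no filter and with the G number, to 1 for month 4 with the G number, to 2 for month 5 with DESeq2 and without mice 3334 and 3335 (0 to 2 with 1 mouse left out), to 2 for CM from month 0 to 1 and 1 for the interaction without mice 3334 and 3335, to 3 for the last library with DESeq2 (1 to 2 with 1 mouse left out), to 2 for Ctrl from month 0 to 6 with DESeq2 and 0 with no filter or without mouse 3335, and to 2 arm ratios with the deposited CPM (1 to 2 with 1 mouse left out). Members under 20 CPM rest on few counts.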
